A study of Mus musculus with 6 samples.

Results

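To determine which receptors for extracellular matrix are transcribed while dissociated limb mesenchyme reassembles into digit-like structures, the transcripts of 10 integrin subunits were followed in single-cell RNA sequencing of digits-in-a-dish (DID) cultures. The 10 genes, *Itga1*, *Itga2*, *Itga5*, *Itga6*, *Itga8*, *Itga9*, *Itga10*, *Itga11*, *Itgav* and *Itgb1*, were taken by their symbols from the 32286 genes of the count tables, and all 10 passed the filter on low counts. The cultures were grown at high density from distal forelimb mesenchyme of E11.5 CD-1 mouse embryos, for which the labels name no transgene or deletion, and 2 independent cultures, replicates A and B, were dissociated and captured as separate droplet libraries on Day 2, Day 7 and Day 10. The groups differ by time in culture alone, as far as the labels say, and the libraries hold only those cells that survived dissociation. The series covers 6 libraries in all.

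Integrins are receptors made of 1 alpha and 1 beta chain, and they link the matrix outside a cell to the actin cytoskeleton inside it. The beta chain of *Itgb1* can pair with every alpha chain described here, and the alpha chain sets which ligand is bound. The chains of *Itga1*, *Itga2*, *Itga10* and *Itga11* bind collagens, those of *Itga5*, *Itga8* and *Itgav* bind ligands with an Arg-Gly-Asp motif such as fibronectin, nephronectin and vitronectin, that of *Itga9* binds tenascin-C and VCAM-1, and that of *Itga6* binds laminins. In cartilage the receptor with the *Itga10* chain is known as a receptor for type II collagen, and in fibrous tissues the receptor with the *Itga11* chain is known as a receptor for type I collagen.

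The collagen-binding alpha chains differ from the others in sequence, and the site that sets them apart is shown here. Each of these 4 chains contains an inserted domain whose metal-ion-dependent adhesion site holds the divalent cation that contacts collagen, and the beta chain has a related site. The site begins with an Asp-x-Ser-x-Ser motif, and the following lines give the 45 coding bases around it, 5′ to 3′ on the coding strand, with the 15 bases of the motif in capitals, read from GRCm38 with the GENCODE M21 transcripts.
Itga1: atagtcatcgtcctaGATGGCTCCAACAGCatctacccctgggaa
Itga2: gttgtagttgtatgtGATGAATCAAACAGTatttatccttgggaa
Itga10: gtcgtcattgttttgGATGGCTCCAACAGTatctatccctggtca
Itga11: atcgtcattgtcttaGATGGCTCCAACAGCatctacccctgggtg
Itgb1: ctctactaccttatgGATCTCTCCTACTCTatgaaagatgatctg
The windows lie at chr13:115030099-115030143 on the minus strand in exon 6 of 29 of *Itga1*, at chr13:114880612-114880656 on the minus strand in exon 6 of 30 of *Itga2*, at chr3:96649052-96649096 on the plus strand in exon 6 of 30 of *Itga10*, at chr9:62735289-62735333 on the plus strand in exon 6 of 30 of *Itga11*, and at chr8:128713264-128713308 on the plus strand in exon 5 of 16 of *Itgb1*, all in coding sequence. In *Itga2* the window holds the first of 2 matches, and in the other 4 genes the only one. *Itga1* and *Itga11* were identical at 40 of the 45 bases and at all 15 bases of the motif, *Itga10* and *Itga11* at 37 and 14, and *Itga1* and *Itga2* at 29 and 11. No Asp-x-Ser-x-Ser match was found in the coding sequences of *Itga5*, *Itga6*, *Itga8*, *Itga9* or *Itgav*. The letters of the motif say nothing about whether a site is used.

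After the study's limits on cells were applied, the libraries held 9448 to 16486 cells with 178022112 to 260245417 unique molecular identifiers (UMIs) each, a UMI being 1 captured transcript. Depth per cell was uneven, since the median was 3871 UMIs in Day 2 replicate B against 18587 in replicate A, 8062 and 9337 on Day 7, and 24197 and 22128 on Day 10, and 41.4% of the cells of Day 2 replicate B had fewer than 3000 UMIs. Any 2 libraries shared 24 to 67 cell barcodes. *Hoxa13*, a marker of the distal limb, was measured at 19.4 CPM (counts per 1000000 UMIs) on Day 2 and 11.7 on Day 10, and *Hbb-y*, made by primitive red cells, had a mean of 46.3 CPM on Day 2 and no UMI later. The replicates are separate cultures, so that n = 2 per day, and all p-values measure the spread between these libraries.

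Across whole cultures, the largest rises between Day 2 and Day 7 were those of *Itga10*, *Itga1*, *Itga6* and *Itga11*. In all, 5 of the 10 subunits, *Itga1*, *Itga5*, *Itga6*, *Itga10* and *Itga11*, rose, 3 fell (*Itga8*, *Itga9* and *Itgb1*), and *Itga2* and *Itgav* were not called. With every cell thinned to 1000 UMIs 0 subunits were called lower, so the 3 falls lost their call. The share of all genes called after thinning was not computed for any pair of days. Fewer counts and an effect of depth therefore cannot be told apart in the calls lost. Of all 18987 genes tested without thinning between Day 2 and Day 7, 70.3% were called, 35.7% as higher and 34.6% as lower, so the share of members called is near that of the transcriptome. Levels of whole cultures are given in CPM scaled by TMM factors, and in such sums fewer cells of a type and less RNA per cell cannot be told apart.

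The collagen receptors were examined first. *Itga10* was measured at 0.757 and 0.900 CPM in replicates A and B on Day 2, at 24.3 and 21.7 on Day 7, and at 17.0 and 15.5 on Day 10. The 3 days did not overlap, with Day 7 highest and Day 2 close to 0. The log2 fold change was 4.80 (SE 0.105) between Day 2 and Day 7, a 27.9-fold rise, followed by a fall of 0.51 (SE 0.0803) on the log2 scale by Day 10 (edgeR quasi-likelihood, adjusted p = 5.04e-09 and 0.00109). *Itga1*, whose chain is known to prefer collagen IV, had 7.96 and 9.26 CPM on Day 2, 40.1 and 39.8 on Day 7, and 23.3 and 22.4 on Day 10. It followed the same course, a 4.64-fold rise (log2 2.21, SE 0.0734) and then a fall of 0.81 (SE 0.0695) on the log2 scale.

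*Itga11* did not follow that course. It had 7.89 and 7.06 CPM on Day 2, 29.6 and 26.9 on Day 7, and 39.7 and 44.8 on Day 10, so that every library lay above those of the day before it. Its log2 fold change was 1.92 (SE 0.0842) to Day 7 and a further 0.58 (SE 0.0792) to Day 10 (edgeR, adjusted p = 1.68e-07 and 0.000503). *Itga2*, the remaining collagen receptor, was near 2 CPM, with 2.17 and 2.18 on Day 2, 1.77 and 2.30 on Day 7, and 1.83 and 1.97 on Day 10. Its Day 7 libraries spanned those of the other days, and no comparison between days was called.

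Among the receptors for Arg-Gly-Asp ligands, *Itga5*, the fibronectin receptor chain, had 22.0 and 22.5 CPM on Day 2, 41.4 and 37.5 on Day 7, and 44.5 and 38.9 on Day 10. It rose 1.77-fold to Day 7 (log2 0.82, SE 0.0748), and the Day 7 and Day 10 libraries overlapped. *Itgav*, which also pairs with other beta chains, had 44.7 and 45.2, 50.9 and 46.9, and 61.0 and 56.5 CPM on the same days. Only its change from Day 7 to Day 10 and that from Day 2 to Day 10 were called, at log2 0.26 (SE 0.0596) and 0.39 (SE 0.0596). *Itga8*, the nephronectin receptor chain, fell from 15.2 and 14.3 CPM to 10.5 and 9.85 and then to 8.51 and 9.09, with log2 fold changes of −0.53 (SE 0.0639) and −0.21 (SE 0.0646).

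*Itga9* fell at both steps, from 15.2 and 15.8 CPM on Day 2 to 10.8 and 10.2 on Day 7 and 7.32 and 6.70 on Day 10, with log2 fold changes of −0.56 (SE 0.0636) and −0.58 (SE 0.0649). *Itga6*, the laminin receptor chain, rose from 7.30 and 7.20 CPM to 28.5 and 27.9, a 3.89-fold change (log2 1.96, SE 0.0499), and had 28.6 and 28.1 on Day 10, with no call between the later days. *Itgb1*, the shared partner, was far above every alpha chain, at 603 and 574 CPM on Day 2, 510.1 and 487 on Day 7, and 465 and 480.4 on Day 10. It fell by 0.24 (SE 0.0609) on the log2 scale to Day 7 and was not called thereafter (log2 −0.08, SE 0.0609, edgeR adjusted p = 0.309).

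From Day 7 to Day 10, 2 subunits rose, 4 fell and 4 were not called, where 52.2% of all genes were called, 26.3% as higher and 25.9% as lower, and from Day 2 to Day 10 the counts were 6, 3 and 1, where 77.3% were called, 39.0% as higher and 38.2% as lower. The median log2 fold change of the 10 subunits was 0.47 to Day 7, −0.09 from Day 7 to Day 10 and 0.65 over both steps, against 0.01, −0.02 and 0.00 over all genes. The TMM factors added 0.28 to each log2 fold change between Day 2 and Day 7 and 0.26 to each between Day 2 and Day 10. Against plain library totals *Itgav* therefore stood at −0.16 instead of 0.12 from Day 2 to Day 7 and *Itga2* joined the subunits that fell, while *Itga1*, *Itga5*, *Itga6*, *Itga10* and *Itga11* still rose. Without Day 10 replicate A or without Day 7 replicate B only 1 subunit was called higher from Day 7 to Day 10. With every cell thinned to 1000 UMIs 3 of the 6 calls were left, the rise of *Itga11* and the falls of *Itga1* and *Itga9*, and those of *Itga8*, *Itga10* and *Itgav* were lost.

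**Figure D1:**
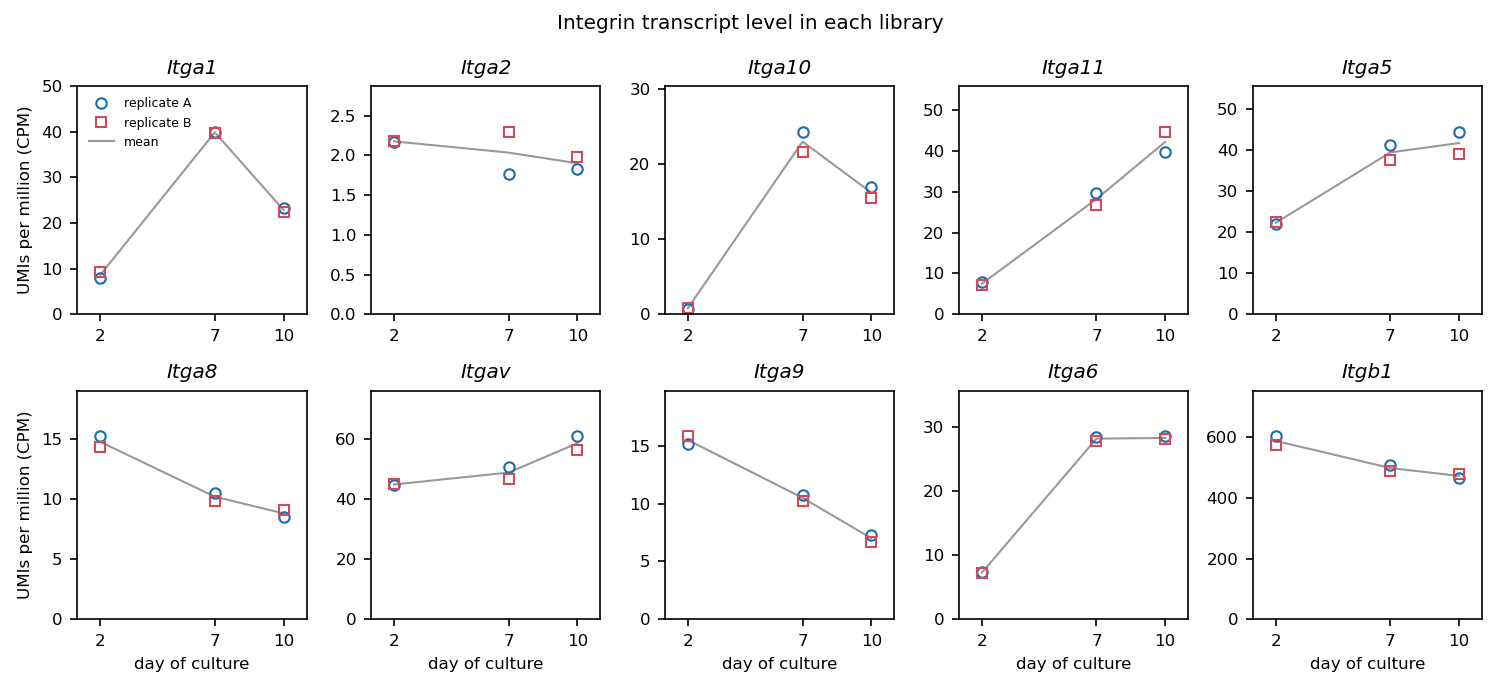
TMM-scaled CPM of each integrin subunit on a linear axis from 0 (y axis, own range per panel) against day in culture (x axis), with circles for replicate A, squares for replicate B and a grey line through the mean of the 2 libraries. *Itga10* and *Itga1* peaked on Day 7, *Itga11* was highest on Day 10, and *Itga8* and *Itga9* were highest on Day 2.

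Because each alpha chain needs a beta chain, the alpha transcripts were also set against those of *Itgb1*. A UMI marks 1 molecule at its 3′ end and is not divided by gene length, although capture may differ between genes. The 9 alpha chains together gave 0.204 and 0.217 UMIs per UMI of *Itgb1* on Day 2, 0.466 and 0.458 on Day 7, and 0.499 and 0.466 on Day 10. Hence the Day 2 libraries lay below all later ones, and the Day 7 and Day 10 libraries overlapped. The ratio covers these 9 alpha chains only and leaves out others such as *Itga4*, and *Itgav* also pairs with other beta chains. It therefore does not measure how the whole of *Itgb1* is matched by alpha chains. The make-up of the 9 chains changed as well. *Itgav* took 36.3% ± 0.0446 (SD, n = 2) of alpha UMIs on Day 2, 21.2% ± 0.269 on Day 7 and 25.8% ± 0.759 on Day 10, and the 4 collagen receptors *Itga1*, *Itga2*, *Itga10* and *Itga11* took 6.95, 1.76, 0.669 and 6.04% on Day 2, 17.3, 0.887, 9.98 and 12.2% on Day 7, and 10.0, 0.834, 7.11 and 18.6% on Day 10. *Itga8* and *Itga9* made up 11.9 and 12.5% of alpha UMIs on Day 2 and 3.87 and 3.08% on Day 10.

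To determine which lineage held each alpha chain, the cells of each day were clustered without the integrin and matrix genes under study, and clusters were named from lists of marker genes. Of 49 clusters 29 received a name, and the unnamed clusters held 44.3 and 43.1% of the cells in replicates A and B on Day 2, 43.2 and 36.8% on Day 7, and 63.9 and 65.7% on Day 10. Cells were annotated as chondrocyte-like, joint interzone-like and immune-like on all 3 days, with interdigital mesenchyme-like and myogenic-like cells on Day 2, contractile mesenchyme-like, myogenic-like, tenocyte-like and perichondrium-like cells on Day 7, and contractile mesenchyme-like, osteoblast-like and *Wnt10a*-positive mesenchyme-like cells on Day 10. Levels within a class are CPM of that class's own UMIs, without TMM factors. The tests of classes used TMM factors, so a call need not follow the order of these levels.

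Some names carry limits. Under another language setting of the computer the clusters and names changed on all 3 days, so every class value below rests on 1 of these clusterings. On Day 2 no cluster was named contractile mesenchyme-like, although a cluster of 1394 and 818 cells in replicates A and B, led by *Stmn4*, *Actg2* and *Krt19*, and a cluster of 420 and 1633 cells, led by *Ankrd1*, *Cryab* and *Ptgs2*, were enriched for 6 contractile markers, because the 10 leading genes of each held 1 marker of another list, *Krt18* of the epithelial list, and 0 contractile markers. The same held on Day 10 for a cluster led by *Kctd8*, *Ccn5* and *Meox1* (966 and 787 cells), a cluster led by *Ankrd1* (830 and 669 cells) and a cluster led by *Prg4* and genes of cell division (149 and 138 cells), where the marker of another list was *Scx* of the tenocyte list, *Stmn2* of the *Wnt10a*-positive list and *Prg4* of the articular list, so that the contractile mesenchyme-like class of Day 10 was left with a cluster led by genes of DNA replication such as *Hist1h1b* (664 and 588 cells) and a cluster at 0.0592 of its libraries' depth (424 and 249 cells). The perichondrium-like cluster was led by genes of DNA repair and cell division such as *Neil3*, *Esco2* and *Kif15*. The Day 10 joint interzone-like cluster was named from *Sfrp2*, *Ebf1*, *Jun* and *Hoxd13* without *Gdf5*, and whether it holds the same kind of cells as the earlier clusters of that name was not tested. The largest chondrocyte-like cluster of Day 2 was mostly replicate B, which gave 5645 of its cells against 453 from replicate A, and 1 of the Day 10 chondrocyte-like clusters was led by *Snorc*, *Ibsp* and *Ihh*, the last a signal of maturing cartilage.

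A class was compared with the other named classes of its day in library sums, and a subunit was called enriched at an adjusted p below 0.05 and a log2 fold change above 0.25. Of 40 pairs of subunit and class on Day 2, 14 were enriched and 10 depleted, of 70 on Day 7, 20 and 17, and of 60 on Day 10, 22 and 23. Over all genes 23.0, 24.6 and 25.9% of pairs were enriched on these days. Whether the subunits were enriched or depleted more often than other genes was not tested. In the following counts of subunits the number enriched stands before the number depleted, each with the share of all genes in parentheses. On Day 2 the counts were 8 and 0 in chondrocyte-like (22.5 and 16.4%), 1 and 4 in interdigital mesenchyme-like (17.7 and 18.2%), 2 and 1 in joint interzone-like (23.7 and 22.2%) and 3 and 5 in myogenic-like (28.0 and 27.8%) cells. On Day 7 they were 2 and 4 in chondrocyte-like (30 and 19.4%), 5 and 4 in contractile mesenchyme-like (30.5 and 11.7%), 8 and 0 in perichondrium-like (27.0 and 25.8%), 3 and 3 in tenocyte-like (23.2 and 10.0%), 2 and 3 in immune-like (20.9 and 15.3%), 0 and 2 in joint interzone-like (28.6 and 14.3%) and 0 and 1 in myogenic-like (11.9 and 7.39%) cells. Among named classes, chondrocyte-like cells of Day 2 and perichondrium-like cells of Day 7 thus had the highest counts of enriched subunits, although at 2 times the cluster resolution the Day 2 values of *Itga2*, *Itga5* and *Itgb1* turned negative (−0.15, −0.054 and −0.15). The unnamed clusters were left out of this comparison. On Day 2 their mean level was above the chondrocyte-like mean for *Itga2*, *Itga5*, *Itga6*, *Itga8*, *Itga11*, *Itgav* and *Itgb1*, with 852 against 566 CPM for *Itgb1*. For *Itga1*, *Itga9* and *Itga10* it was below. On Day 10 the counts were 5 and 3 in chondrocyte-like (30.1 and 27.3%), 4 and 2 in contractile mesenchyme-like (22.3 and 22.8%), 5 and 3 in immune-like (32.5 and 28.9%), 4 and 3 in joint interzone-like (24.4 and 24.8%), 2 and 6 in osteoblast-like (22.5 and 22.9%) and 2 and 6 in *Wnt10a*-positive (23.5 and 21.8%) cells.

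**Figure D2:**
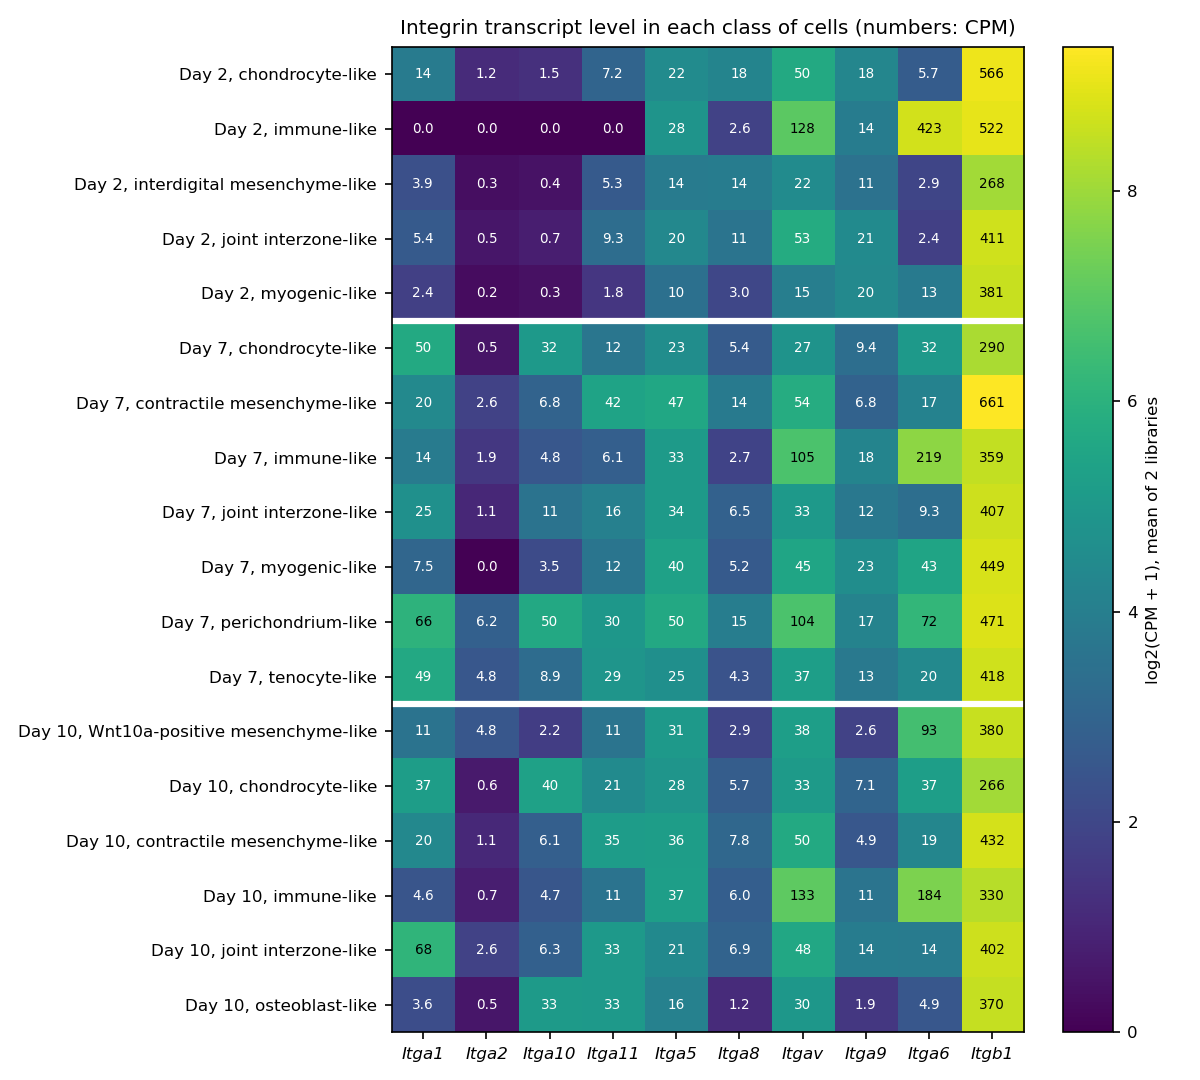
Levels of the 10 integrin subunits (columns) in each named class and day (rows), where the printed number is the mean CPM of 2 libraries and the colour is log2(CPM + 1). *Itga10* is highest in the perichondrium-like row of Day 7, the chondrocyte-like rows of Day 7 and Day 10 and the osteoblast-like row, *Itga6* in the immune-like and *Wnt10a*-positive rows, and *Itgb1* in the contractile mesenchyme-like row of Day 7.

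Among named classes, *Itga10* was held chiefly by the cartilage lineage. In chondrocyte-like cells it had 1.44 and 1.52 CPM on Day 2, 33.1 and 30.3 on Day 7, and 41.1 and 38.5 on Day 10, against 0.778 and 0.642, 12.0 and 9.99, and 6.23 and 6.37 in joint interzone-like cells, and 7.13 and 6.52 and then 6.24 and 5.87 in the contractile mesenchyme-like cells of the later days. In every library the chondrocyte-like level was above those of these classes, and the log2 fold change of chondrocyte-like cells over the other classes was 1.65 (SE 0.274), 1.90 (SE 0.0876) and 2.71 (SE 0.0728). The Day 2 value was 2.51 and not called with clusters built without integration. Chondrocyte-like cells held 54.2, 61.5 and 60.1% of all *Itga10* UMIs while giving 34.4, 41.6 and 23.2% of all UMIs. It was also enriched in perichondrium-like cells on Day 7 (53.7 and 45.8 CPM) and in osteoblast-like cells on Day 10 (31.4 and 35.1 CPM), with log2 fold changes of 2.18 (SE 0.179) and 2.42 (SE 0.102). The unnamed clusters of Day 7 had 56.3 and 49.2 CPM, above the chondrocyte-like level of that day.

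Per cell, an *Itga10* UMI was found in 1.77% (95% exact binomial interval 1.51 to 2.05) and 1.06% (0.911 to 1.23) of all cells on Day 2, in 22.9% (22.2 to 23.6) and 22.1% (21.4 to 22.9) on Day 7, and in 23.7% (22.9 to 24.6) and 21.8% (21.0 to 22.7) on Day 10. Within the cartilage lineage it was found in 2.86 and 1.25% of chondrocyte-like cells on Day 2, in 51.8 and 51.3% on Day 7, and in 62.4 and 62.9% on Day 10. The share in immune-like cells, a lineage outside the skeleton, was 10.7 and 11.6% on Day 7 and 10.2 and 6.75% on Day 10, and the share in contractile mesenchyme-like cells was 15.9 and 13.5% on Day 7 and 12.5 and 14.0% on Day 10. Median depth was 25133 and 25163 UMIs in the chondrocyte-like cells of Day 7, 29267 and 29080.5 in the contractile mesenchyme-like and 30436.5 and 24093 in the immune-like cells, and on Day 10 it was 29257 and 28443, 32012 and 34927 and 21231.5 and 21616. The *Itga10* level in immune-like cells was 4.36 and 5.25 CPM on Day 7 and 4.81 and 4.63 on Day 10, so the contractile mesenchyme-like level lay above it on both days, by a small margin on Day 10. With each cell thinned to 1000 UMIs the chondrocyte-like shares became 0.201 and 0.133%, 4.09 and 3.54%, and 5.96 and 4.94% on the 3 days, and the contractile mesenchyme-like shares 0.713 and 0.745% on Day 7 and 0.935 and 0.770% on Day 10. On Day 2 no *Itga10* UMI was seen in the immune-like cells, 19 in replicate A and 7 in replicate B, which allows up to 7.75 and 20.7 CPM, counting error only.

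*Itga1* was shared among cartilage and other classes. Its chondrocyte-like levels were 13.9 and 14.2 CPM on Day 2, 50.9 and 49.8 on Day 7, and 35.6 and 37.5 on Day 10, and the class was enriched on all 3 days (log2 1.91, 1.35 and 1.73, with SE 0.146, 0.0909 and 0.0851). Joint interzone-like cells went from 4.51 and 6.21 CPM through 26.6 and 23.4 to 76.8 and 60.0, the highest class level on Day 10 (log2 2.47, SE 0.101 over the other classes). The highest class level on Day 7 was that of perichondrium-like cells, at 58.4 and 74.2 CPM (log2 1.31, SE 0.174). Tenocyte-like cells, named on Day 7 only, had 49.2 and 49.4 CPM (log2 1.11, SE 0.111), and osteoblast-like cells were depleted, at 3.70 and 3.47 CPM (log2 −2.26, SE 0.194), a direction that turned to 0.12 at 2 times the cluster resolution.

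*Itga11* was enriched over the other named classes in contractile mesenchyme-like, tenocyte-like and perichondrium-like cells on Day 7 and in contractile mesenchyme-like, osteoblast-like and joint interzone-like cells on Day 10. Contractile mesenchyme-like cells held 58.0% of its UMIs on Day 7 with 36.5% of all UMIs, but 10.3% on Day 10 with 11.8% of all, when the unnamed clusters held 72.9% with 56.2% of all. Contractile mesenchyme-like cells had 42.3 and 41.3 CPM on Day 7 and 31.5 and 38.6 on Day 10, against 12.8 and 11.1 and then 19.3 and 23.2 in chondrocyte-like cells. The 2 classes did not overlap on either day, and the enrichment in contractile mesenchyme-like cells was 1.60 (SE 0.0993) and 0.75 (SE 0.0739) on the log2 scale. Tenocyte-like cells had 28.7 and 28.6 CPM on Day 7 (log2 0.96, SE 0.134), perichondrium-like cells had 39.1 and 21.7 (log2 0.82, SE 0.23), and osteoblast-like cells had 32.9 and 33.0 CPM on Day 10 (log2 0.91, SE 0.0979, and 0.028 and not called at 2 times the resolution). Joint interzone-like cells overlapped with both the contractile mesenchyme-like and the osteoblast-like cells on Day 10, at 30.3 and 35.4 CPM (log2 0.52, SE 0.100), but this value was −0.39 at 2 times the resolution and −0.15 without integration. Higher levels than in any named class of Day 10 were found in unnamed clusters, 53.7 and 61.3 CPM in that led by *Kctd8*, which had both contractile markers and the tendon gene *Scx*, and 44.3 and 67.7 in that led by *Ankrd1*. Within cartilage, the Day 10 cluster led by *Snorc*, *Ibsp* and *Ihh* had a mean of 53.2 CPM against 14.6 in the largest chondrocyte-like cluster of that day. On Day 2 the class levels were below 10 CPM, with 9.18 and 9.34 in joint interzone-like cells (log2 0.96, SE 0.177), and the unnamed cluster led by *Stmn4* had 15.3 and 14.2.

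*Itga2* was low throughout. On Day 2 the unnamed clusters had 4.11 and 4.23 CPM and held 80.5% of its UMIs with 47.6% of all UMIs, and its highest level was in the unnamed cluster with contractile markers led by *Ankrd1*, at 13.4 and 17.2 CPM, against 1.15 and 1.28 in chondrocyte-like cells. Among named classes of Day 7 it was highest in perichondrium-like cells, with 3.32 and 9.17 CPM (log2 3.02, SE 0.773), which rest on 5 and 11 UMIs. It was also enriched on Day 7 in tenocyte-like cells, with 4.52 and 5.16 CPM (log2 2.94, SE 0.448), and in contractile mesenchyme-like cells, with 2.37 and 2.79 CPM (log2 1.89, SE 0.628, not called with DESeq2 size factors at 1.75). The other classes in these Day 7 values include myogenic-like cells, where no *Itga2* UMI was seen in either library. That absence allows up to 3.46 and 24.5 CPM, and its part in the fold changes was not tested. On Day 10 *Itga2* was enriched in *Wnt10a*-positive cells, with 6.56 and 3.03 CPM (log2 2.26, SE 0.357), a value that rests on 34 UMIs in each library.

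The receptors for Arg-Gly-Asp ligands had their own order. *Itga5* was enriched in contractile mesenchyme-like cells, with 49.8 and 44.8 CPM on Day 7 and 38.7 and 33.6 on Day 10 (log2 0.70 and 0.37, SE 0.0835 and 0.0738), and the unnamed Day 10 cluster led by *Ankrd1* had 94.2 and 84.2. Perichondrium-like cells of Day 7, at 57.7 and 41.7 CPM (log2 0.52, SE 0.18), and immune-like cells of Day 10, at 36.4 and 37.8 CPM (log2 0.64, SE 0.108), were enriched for *Itga5* too and overlapped with the contractile mesenchyme-like levels. *Itga8* was enriched in the contractile mesenchyme-like class too, at 14.2 and 13.2 CPM on Day 7 and 6.97 and 8.68 on Day 10 (log2 1.42 and 0.89, SE 0.141 and 0.138), in perichondrium-like cells on Day 7, at 18.6 and 10.8 CPM (log2 1.30, SE 0.324), and in the chondrocyte-like cells of Day 2, at 17.9 and 17.6 CPM (log2 1.14, SE 0.0861). Mean *Itga8* levels on Day 10 were 7.83 CPM in contractile mesenchyme-like, 6.93 in joint interzone-like and 5.72 in chondrocyte-like cells. Immune-like cells lay between the joint interzone-like and chondrocyte-like means, and *Wnt10a*-positive and osteoblast-like cells lay below them. Among the named classes of Day 10 *Itga8* was therefore not particular to contractile mesenchyme-like cells. On Day 10 the contractile mesenchyme-like cells, with 11.8% of all UMIs, held 10.8% of those of *Itga5* and 11% of those of *Itga8*, and the unnamed clusters, with 56.2%, held 66.6 and 68.9%. *Itgav* was high in immune-like cells, with 145 and 110.2 CPM on Day 2, 100.3 and 109 on Day 7, and 131 and 134 on Day 10. No other named class reached these levels on Day 2 or Day 10, and on Day 7 the perichondrium-like cells overlapped with them at 119 and 89.2 CPM.

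The immune-like enrichment of *Itgav* was 1.22 (SE 0.144) on Day 7 and 1.87 (SE 0.0638) on Day 10 on the log2 scale. Chondrocyte-like cells were enriched for *Itgav* on Day 2 (49.1 and 51.8 CPM, log2 0.92, SE 0.0595) and depleted on Day 7 (29.5 and 25.3 CPM, log2 −0.76, SE 0.0843) and Day 10 (33.6 and 32.8 CPM, log2 −0.50, SE 0.0472). On Day 2 joint interzone-like cells had a similar *Itgav* level, with a mean of 52.7 CPM (SD 2.83, n = 2). *Itga9* was enriched in the myogenic-like cells of Day 2, at 22.0 and 18.8 CPM (log2 0.68, SE 0.104), where joint interzone-like cells had 21.9 and 20.6, the highest mean of the day's tested classes, and chondrocyte-like cells had 17.5 and 19.4, neither of them called. The test was scaled by TMM factors and these levels were not, so the call does not place myogenic-like cells above the joint interzone-like level. On Day 10 it was enriched in joint interzone-like cells, although its level there was higher in replicate A than in replicate B, 18.1 and 10.3 CPM (log2 1.43, SE 0.187), and at 2 times the cluster resolution the value was −0.11. This class did not hold *Itga9* alone on Day 10, since means were 11.2 CPM in immune-like and 7.12 in chondrocyte-like cells. Contractile mesenchyme-like, *Wnt10a*-positive and osteoblast-like cells had 4.89, 2.56 and 1.90 CPM. On Day 7 no class was called enriched, with means of 23.3 CPM in myogenic-like, 17.8 in immune-like and 17.4 in perichondrium-like cells and 19.8 in the unnamed clusters, and chondrocyte-like and contractile mesenchyme-like cells were depleted, the latter at 7.04 and 6.54 CPM (log2 −1.02, SE 0.128).

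*Itga6* was led by immune-like cells, with 460.1 and 386 CPM on Day 2, 206 and 232 on Day 7, and 209 and 158 on Day 10. These cells held 4.25% of its UMIs on Day 7 and 9.28% on Day 10 while giving 0.505 and 1.39% of all UMIs, and the log2 fold change over the other classes was 3.01 (SE 0.107) and 3.18 (SE 0.0782). *Wnt10a*-positive cells followed on Day 10 at 94.3 and 92.4 CPM (log2 1.93, SE 0.0743) and perichondrium-like cells on Day 7 at 72.3 and 71.7 (log2 0.93, SE 0.133), and on Day 2 myogenic-like cells were enriched at 16.5 and 10.4 CPM (log2 2.36, SE 0.205). In cartilage *Itga6* went from 5.11 and 6.19 CPM in the chondrocyte-like cells of Day 2 to 33.0 and 31.8 on Day 7 and 38.6 and 35.4 on Day 10, and the class was called enriched on Day 10 only (log2 0.45, SE 0.0687). Although the level was moderate, chondrocyte-like cells held 51.2% of all *Itga6* UMIs on Day 7 and 32.0% on Day 10, while giving 41.6 and 23.2% of all UMIs. Joint interzone-like and osteoblast-like cells were depleted of it on Day 10 (log2 −1.58, SE 0.137 and log2 −3.02, SE 0.163).

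*Itgb1* was highest among the named classes of Day 7 and Day 10 in contractile mesenchyme-like cells, at 673 and 648 CPM and then 429 and 434, called enriched on Day 7 (log2 0.81, SE 0.0974) and not on Day 10 (log2 0.21, SE 0.0513). Of the unnamed clusters with contractile markers, those of Day 2 had 1024 and 1007 CPM and 1127 and 1107 CPM, and that of Day 10 led by *Ankrd1* had 717 and 781. Chondrocyte-like cells had 561 and 571, 296 and 283, and 255 and 278 CPM. They were enriched on Day 2 (log2 0.66, SE 0.0418, but −0.15 at 2 times the resolution) and depleted on Day 7 (log2 −0.38, SE 0.106) and Day 10 (log2 −0.39, SE 0.0535). Chondrocyte-like cells carried more alpha UMIs per *Itgb1* UMI than contractile mesenchyme-like cells, with mean ratios of 0.663 against 0.319 on Day 7 and 0.788 against 0.416 on Day 10, whereas on Day 2 their ratio of 0.244 lay below that of joint interzone-like cells, 0.299. The ratio in immune-like cells was 1.15, 1.13 and 1.19 on the 3 days, and these cells are known to use other beta chains as well.

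**Figure D3:**
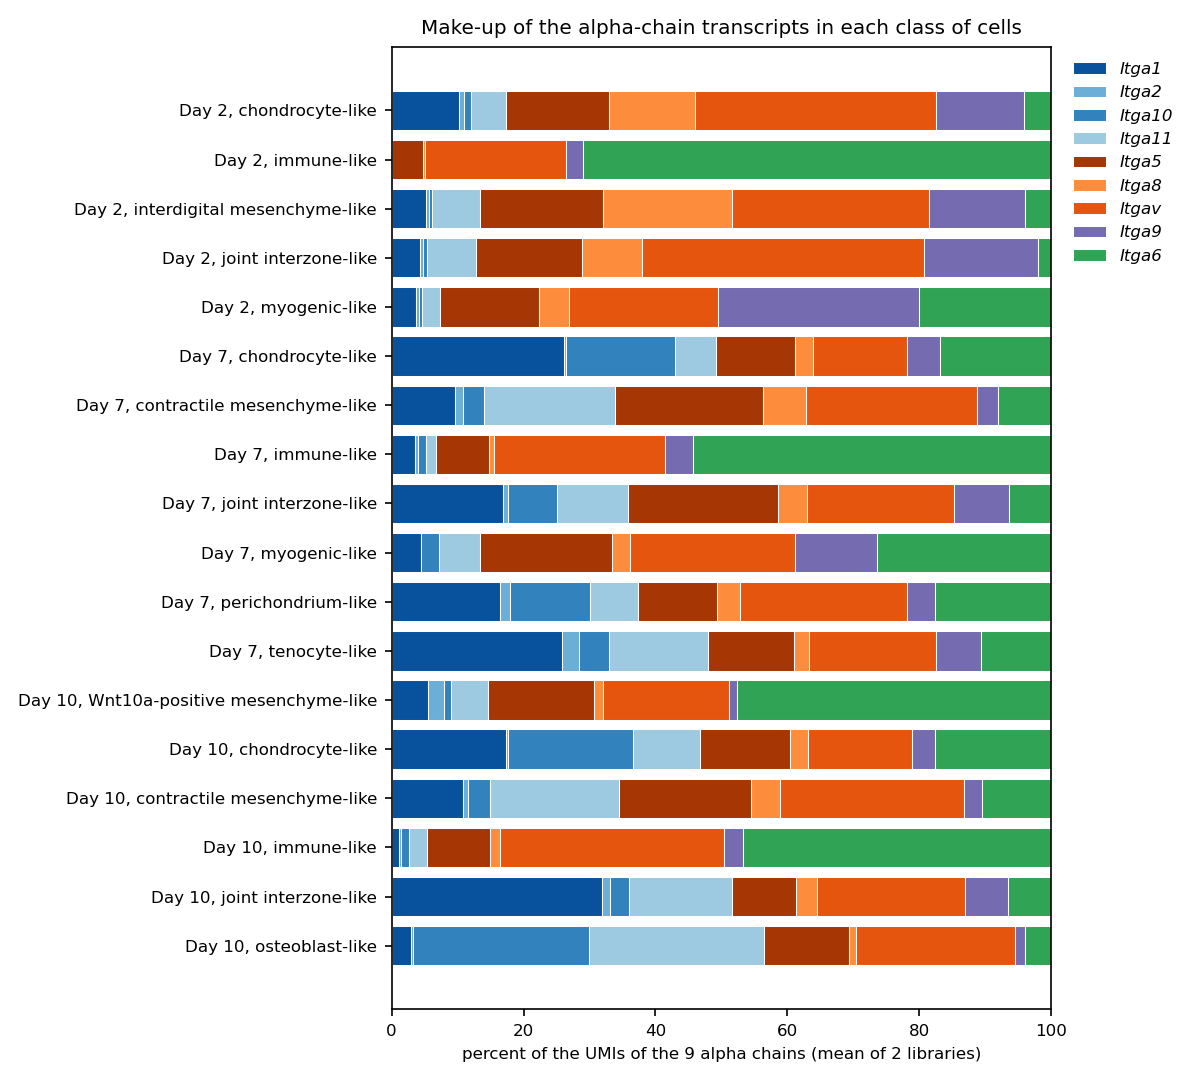
Percent of the UMIs of the 9 alpha chains that each chain gave (x axis, stacked to the total) in each named class and day (y axis, mean of 2 libraries). *Itga10* and *Itga1* fill much of the chondrocyte-like bars from Day 7 on, *Itga10* and *Itga11* much of the osteoblast-like bar, and *Itga6* fills the largest part of the immune-like bars of Day 2 to Day 10.

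To separate changes within a lineage from changes in the share of lineages, the days were compared inside each class. In chondrocyte-like cells all 10 subunits were called from Day 2 to Day 7, 5 higher and 5 lower, where 76.7% of all genes were called, 37.6% as higher and 39.1% as lower. *Itga10* rose by 4.86 on the log2 scale (SE 0.0919, 29.0-fold), *Itga6* by 2.96 (SE 0.0864), *Itga1* by 2.28 (SE 0.0591), *Itga11* by 1.17 (SE 0.0952) and *Itga5* by 0.52 (SE 0.0673). *Itga8*, *Itga2*, *Itga9*, *Itgb1* and *Itgav* fell by 1.28, 0.98, 0.53, 0.53 and 0.45. The TMM factors added 0.44 to these values, and 0.26 to those of joint interzone-like cells over the same step. Without them *Itga5* stood at 0.083 in chondrocyte-like cells and was not called. From Day 2 to Day 10, where 79.0% of all genes were called, 39.5% in each direction, the same 5 subunits were higher and the same 5 lower.

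From Day 7 to Day 10 the chondrocyte-like cells and the whole cultures differed in direction for *Itga10*. In the whole cultures it fell by 0.51 on the log2 scale, and in the chondrocyte-like cells it rose by 0.25 (SE 0.0634, edgeR adjusted p = 0.00640), where 40.9% of all genes were called, 20.6% as higher and 20.3% as lower. Without Day 7 replicate B this rise was 0.20 and without Day 10 replicate A it was 0.19, neither called. The unnamed clusters gave 7.83% of all UMIs on Day 7 and 56.2% on Day 10, so the shares of named classes are not directly comparable between these days. The share of all UMIs that came from chondrocyte-like cells was 41.6% on Day 7 and 23.2% on Day 10, and its part in the whole-culture fall was not tested. *Itga11*, *Itga5* and *Itgav* rose in these cells by 0.75 (SE 0.0873), 0.23 (SE 0.0667) and 0.20 (SE 0.0696), *Itga1*, *Itga9* and *Itgb1* fell by 0.54, 0.48 and 0.20, and the remaining 3 subunits were not called. The 7 calls became 3 without Day 7 replicate B and 4 without Day 10 replicate A.

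In contractile mesenchyme-like cells, compared between Day 7 and Day 10 only and resting on the reduced class of Day 10, 0 subunits rose and 6 fell, where 45.1% of all genes were called, 23.3% as higher and 21.8% as lower. *Itga2* fell by 1.21 (SE 0.207), *Itga8* by 0.83 (SE 0.102), *Itgb1* by 0.63 (SE 0.0504), *Itga9* by 0.48 (SE 0.098), *Itga5* by 0.40 (SE 0.0732) and *Itga11* by 0.27 (SE 0.0843). For *Itga11*, *Itga5* and *Itgb1* the unnamed Day 10 cluster led by *Ankrd1*, which was enriched for the contractile markers, lay above the Day 7 class, as given above, so these falls describe the named class and not all cells with contractile markers. The fall of *Itga11* was not called without Day 7 replicate A or B, without Day 10 replicate A (−0.12) or with clusters built without integration (−0.20).

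In joint interzone-like cells *Itga1* rose at both steps, by 2.50 (SE 0.148) and 1.47 (SE 0.121), which made 15.7-fold between Day 2 and Day 10, and *Itga11* rose by 1.03 (SE 0.126) and 1.06 (SE 0.129). The Day 10 cluster was named without *Gdf5*, so the steps that reach Day 10 compare clusters that share a name. Whether they hold the same kind of cells was not tested. *Itga10* rose by 4.16 (SE 0.228) and then fell by 0.79 (SE 0.206). Over the class, 7 subunits rose and 3 fell to Day 7, where 64.4% of all genes were called (32.9% higher, 31.5% lower), 5 rose and 2 fell from Day 7 to Day 10, where 39.1% were called (19.7% higher, 19.4% lower), and 7 rose and 0 fell over both steps, where 65.4% were called (32.8% higher, 32.6% lower). *Itgb1* was called higher from Day 2 to Day 7 (log2 0.25, SE 0.0642), but against library totals without TMM factors it stood at −0.014. With clusters built without integration only 1 subunit was called from Day 7 to Day 10, and *Itga10* stood at 0.021.

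In myogenic-like cells 4 of 8 subunits tested rose from Day 2 to Day 7 and 0 fell, where 23.1% of all genes were called (11.5% higher, 11.7% lower), but the Day 7 cells numbered 83 and 60 with median depths of 1610 and 1230 UMIs, and leaving out any 1 library left 0 to 2 calls. In immune-like cells 0 of 8 subunits tested were called from Day 7 to Day 10 by edgeR, where 1.18% of all genes were called (0.538% higher, 0.639% lower), and 2 had an unadjusted p below 0.05, *Itga1* and *Itgav*.

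**Figure D4:**
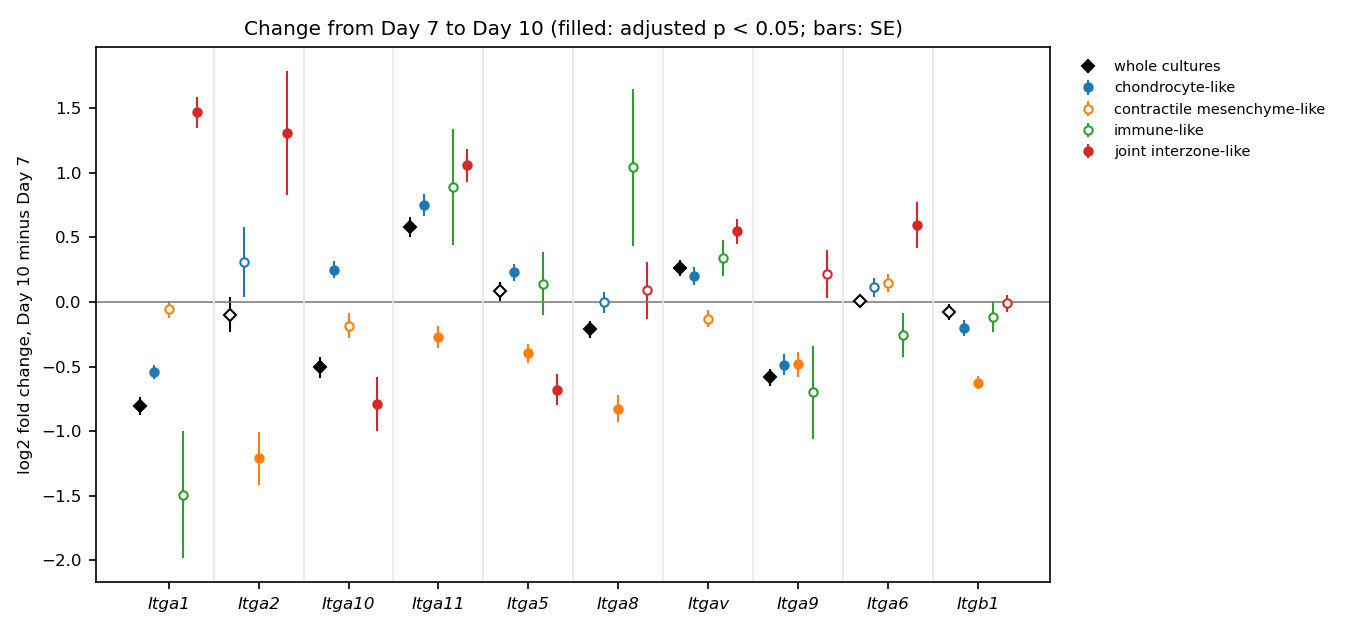
Log2 fold change of Day 10 over Day 7 (y axis) for each integrin subunit (x axis) in whole cultures and in 4 named classes, with bars for the standard error and filled points for an adjusted p below 0.05. *Itga10* lies above 0 in chondrocyte-like cells and below it in whole cultures and in contractile mesenchyme-like and joint interzone-like cells, the contractile value being open.

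Whether the change from Day 2 to Day 10 differed between classes was tested directly for the chondrocyte-like and joint interzone-like cells. This test compares classes by name, and the joint interzone-like cluster of Day 10 was named without *Gdf5*. Of the 10 subunits 8 changed differently in these classes, where 41.9% of all genes did, and 5 did so without Day 10 replicate A. *Itga10* rose by 5.11 (SE 0.0921) in chondrocyte-like cells and by 3.37 (SE 0.319) in joint interzone-like cells, a difference of 1.76 (SE 0.347). *Itga1* rose by 1.74 (SE 0.0599) and by 3.97 (SE 0.148), a difference of −2.19 (SE 0.155). *Itga6* and *Itga11* were not called, with differences of 0.29 (SE 0.195) and −0.14 (SE 0.124).

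Levels also varied between clusters of one class. On Day 2 the shallower chondrocyte-like cluster had 0.663 CPM of *Itga10* and the deeper clusters 1.05 to 2.35, the reverse of the order on the later days. The deeper chondrocyte-like clusters had 27.1 to 29.8 CPM of *Itga10* on Day 7 and 32.0 to 33.9 on Day 10, whereas the shallower had 111 on Day 7 and 126 on Day 10. Over 48 clusters all 10 subunits had negative rank correlations between level and the cluster's depth relative to its libraries, from −0.19 for *Itga1* to −0.53 for *Itgav*, and 8 of 10 peaked in a cluster shallower than its libraries. Neither count was computed over all genes, so they do not set the integrins apart from other genes. *Itga11*, *Itga5*, *Itgav* and *Itgb1* were highest, at 109, 173, 196 and 1301 CPM, in an unnamed Day 10 cluster led by *Pappa* and *Mical2* that had 0.308 of its libraries' depth. *Itga8* and *Itga9* were highest, at 42.9 and 36.1 CPM, in an unnamed Day 2 cluster with mitochondrial RNA among its leading genes and 0.515 of its libraries' depth, and the part of depth in these levels was not tested.

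The genes whose level most resembled that of each subunit over the same 48 clusters were found among 11847 genes by Pearson's r, as a description, since clusters share libraries and depth. *Itga10* was most like *Trpv4* (r = 0.957), an ion channel of chondrocytes, *Xylt1* (0.945), an enzyme of proteoglycan synthesis, and *Extl1* (0.942). *Itga11* was most like *Lox* (0.911), an enzyme that crosslinks collagen, and the collagen genes *Col5a1* (0.910) and *Col1a2* (0.908), and *Itga1* was most like *Tns2* (0.898), *Lama4* (0.890), a laminin chain, and *Tram2* (0.889). The leading gene for *Itga2* was *Samd5* (0.827), for *Itga5* *Tmem43* (0.848), for *Itga6* *Rnf213* (0.812), for *Itga8* *Myh10* (0.808), for *Itga9* *Ap1g1* (0.852), for *Itgav* *Aff1* (0.865) and for *Itgb1* *Mcam* (0.829). Between subunits, r was 0.791 for *Itga1* and *Itga10* and 0.810 for *Itga5* and *Itgav*.

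The ligands of these receptors changed in the whole cultures over the same days. Over all genes, 35.7% were called higher and 34.6% lower from Day 2 to Day 7, and 26.3% and 25.9% from Day 7 to Day 10. Of 10 collagen chains 9 rose and 0 fell from Day 2 to Day 7, and 7 rose and 3 fell from Day 7 to Day 10. *Col2a1*, the main collagen of cartilage, had a mean of 577.6 CPM on Day 2, 8904 on Day 7 and 5653 on Day 10, a course like that of *Itga10*, and *Col1a2*, a chain of type I collagen, had 302, 2117 and 4037 CPM, rising at both steps as *Itga11* did. Of the 10 tested ligands with Arg-Gly-Asp or related sites 7 rose and 2 fell to Day 7 and 8 rose and 0 fell afterwards, among them *Postn* with 13.5, 166 and 366 CPM and *Fn1* with 427, 795 and 1201 CPM. Of 11 laminin chains 8 rose and 1 fell to Day 7, and 3 rose and 4 fell afterwards, with *Lama5* at 3.9, 16.6 and 21.5 CPM.

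Of 14 other integrin subunits tested 8 rose and 4 fell to Day 7, where 35.7% of all genes rose and 34.6% fell, and 7 rose and 1 fell from Day 7 to Day 10, where 26.3% rose and 25.9% fell. *Itga4*, which binds fibronectin and VCAM-1, fell by 1.99 on the log2 scale to Day 7. Of the other beta chains that can pair with *Itgav*, *Itgb5* rose from a mean of 24.4 CPM on Day 2 to 53.8 on Day 7 and 76.2 on Day 10 (log2 1.14 and 0.50) and *Itgb3* from 2.55 to 5.88 and 7.28 CPM (log2 1.20 and 0.31), whereas *Itgb8* fell by 0.66 on the log2 scale to Day 7. *Itgb6* was below 1 CPM on all days and fell at both steps. *Itgb2*, the beta chain of leukocytes, rose by 1.70 and 1.89 at these steps. Of 21 adaptors and kinases of cell adhesion 6 rose, 7 fell and 8 were not called to Day 7, and 10 rose, 3 fell and 8 were not called from Day 7 to Day 10. Among them *Tln1*, which links beta chains to actin, went from 252 to 216 and 192 CPM. Of 11 genes known to respond to tissue dissociation, 6 rose and 4 fell to Day 7 and 8 rose and 0 fell from Day 7 to Day 10, with a median log2 fold change of 0.41 and 0.32, and their part in the integrin levels was not tested.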

How the data were processed

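Mesenchyme of E11.5 mouse forelimbs was cultured as DID and captured on 3 days (Day 2, Day 7 and Day 10) as 3′ droplet libraries from 2 cultures a day. Alignment by the authors was to GRCm38 (mm10) with Cell Ranger 6.1.2, which uses STAR, and they deposited UMI counts per gene and cell barcode. Their own filtering and clustering used Seurat 4.1.0. The deposited counts were used here unchanged.

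The study's limits on cells were applied to each library, namely at least 800 or 1000 UMIs, 200 to 7500 genes, at most 25 to 40% mitochondrial and at most 35 to 40% ribosomal counts. No doublet caller was run. UMIs were summed per library, and per library and class, and sums were tested with edgeR 4.0.16 (TMM, filterByExpr, quasi-likelihood, Benjamini-Hochberg over all genes tested, adjusted p below 0.05, 10 or more cells per class and library). The standard error was taken from the log2 fold change and its F statistic. Shares of cells have 95% exact binomial (Clopper-Pearson) intervals, which cover counting error only.

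Each day was clustered with Seurat 5.3.0 and sctransform 0.4.2 (3000 features, 35 dimensions, resolution 0.5, 0.5 and 0.7), leaving the members and the listed matrix and adhesion genes out of the features (41, 45 and 44 genes removed). A class name needed 3 enriched markers and a mean log2 fold change of its list of at least 1. It was withheld where the 10 leading genes held more markers of another list, or where the first of them was such a marker. It was also withheld from shallow clusters with fewer than 2 own markers among these genes, and where 5 or more were mitochondrial or ribosomal. These rules were chosen with the leading genes of an earlier clustering of these cells in view. The named genes were the 10 members, the 3 genes most like each over clusters, and genes of the lists of ligands, partners and adaptors. The members and all lists were chosen with earlier results of these data known.

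The scripts were first tested on simulated data. The A and B letters were not taken to pair cultures between days, since the labels state no such pairing. The differences between A and B correlated at −0.0032 to −0.0508 between days, which cannot show whether cultures of 1 letter shared a source. The alternatives were DESeq2 1.42.0, other size factors, no filter on low counts, all deposited barcodes, cells of at least 3000 UMIs, cells thinned to 1000 UMIs, a replicate block, leaving out each library, other clusterings and, chosen after the data were seen, library totals without TMM factors. Sequences were read from GRCm38 with GENCODE M21 and checked by script.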

Additional observations from a re-analysis of the deposited data

Results flagged for a closer look

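The change from Day 2 to Day 10 differed between chondrocyte-like and joint interzone-like cells for 8 of 10 subunits, where 41.9% of all genes differed, by a test of the difference itself with edgeR on the log2 scale. The chondrocyte-like change was more positive for *Itga10* by 1.76 and for *Itga5* by 0.44, and the latter was 0.31 and not called against library totals without TMM factors. The difference was −3.42 for *Itga2*, −2.19 for *Itga1*, −0.93 for *Itgb1*, −0.81 for *Itga8*, −0.66 for *Itga9* and −0.33 for *Itgav*. Without Day 10 replicate A those of *Itga9*, *Itga8* and *Itgav* were −0.22, −0.74 and −0.33 and not called. The *Itga2* value rests on 7 and 8 UMIs in the joint interzone-like cells of Day 2 and 19 and 6 on Day 10. These cells were named from 6 markers on Day 2 and from 4 of them, without *Gdf5*, on Day 10, and the part of this in the differences was not tested.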

How the results depend on the processing

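Of 420 recomputed values of whole cultures 401 kept their direction and side of the threshold, of 885 between days within a class 817, of 1190 of a class against the others 957, and of 80 differences between classes 73. With every cell thinned to 1000 UMIs 3 subunits were called from Day 7 to Day 10 (1 higher, 2 lower) and 0 lower from Day 2 to Day 7. Without TMM factors 5 were lower from Day 2 to Day 7, *Itgav* stood at −0.16 in whole cultures, *Itgb1* in joint interzone-like cells at −0.014 (Day 7 over Day 2) and −0.032 (Day 10 over Day 2), and *Itgb1* in the myogenic-like cells of Day 2 at −0.059 against the other classes. Without a filter 1 subunit was called in immune-like cells. Leaving out 1 library gave 1 to 2 subunits higher from Day 7 to Day 10 in whole cultures, 3 to 7 called in chondrocyte-like cells, 0 to 1 in immune-like cells and 0 to 2 in myogenic-like cells, 5 to 8 differences between classes, and −0.16 to 0.037 for *Itgb1* in the myogenic-like cells of Day 2. A replicate block left the counts of calls at 8, 6 and 9 in whole cultures and ended 1 call, myogenic-like *Itga5* (1.49). The labels state no pairing beyond the shared letter.

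Values of cell classes also moved with the clustering. At 2 times the resolution the class-against-others value on Day 2 was −0.15 for *Itgb1*, −0.15 for *Itga2* and −0.054 for *Itga5* in chondrocyte-like, −0.29 for *Itga8* in joint interzone-like and −0.17 for *Itgb1* in myogenic-like cells. On Day 7 it was 0.077 for *Itga1* in contractile mesenchyme-like and 0.71 for *Itgb1* in perichondrium-like cells, and on Day 10 −0.61 for *Itga11* in chondrocyte-like, −0.28 for *Itga1* in contractile mesenchyme-like and 0.12 for *Itga1* in osteoblast-like cells, with −0.15 for *Itga8*, 0.030 for *Itga10*, −0.39 for *Itga11* and −0.11 for *Itga9* in joint interzone-like cells. Without integration it was, on Day 2, 1.54 for *Itga9* in interdigital mesenchyme-like cells and 0.082, 0.060, 0.89 and 1.67 for *Itga8*, *Itga11*, *Itga1* and *Itga5* in myogenic-like cells, on Day 7 −1.40 for *Itga2* in joint interzone-like and 0.48 for *Itgb1* in perichondrium-like cells, and on Day 10 0.084 for *Itga10* and −0.15 for *Itga11* in joint interzone-like cells. The latter had 1 call from Day 7 to Day 10 without integration, with *Itga10* at 0.021. The same clustering under another language setting of the computer gave other clusters and names on all 3 days, including a contractile mesenchyme-like class on Day 2, and its values are not given. The naming rule was written on those clusters. The cause of these shifts was not tested. Depth limits *Itga2* and the Day 2 values of *Itga10*, since several of their class values rest on fewer than 10 UMIs.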
